A study of Mus musculus with 8 samples.

Results

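Rrm2, Tk1, Cdc6 and Uhrf1 are 4 genes of DNA synthesis whose transcripts were followed in alloreactive T cells under costimulation blockade. They were found by gene symbol in the list that the authors deposited. This gave 6 of the 409 listed probe sets, among 45037 on the array apart from its controls: 3 for Rrm2 and 1 each for Tk1, Cdc6 and Uhrf1. The list holds gene names for 289 genes, and further probe sets of the 4 genes outside it carry no name here. The authors chose the list on these same arrays by a test of blockade against no treatment, so the blockade changes of the 4 genes chose them and are given as a description without a test. The difference between CD4 and CD8 cells was not what the list was chosen for, and it was tested. It is not independent of the choice, since the authors' test, where it joined both subsets, would have counted subset differences and replicate spread as error and favoured genes with little of either.

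RNA came from T cells of a mixed lymphocyte reaction, where spleen cells of a first strain react against a second strain. C57BL/6 responder cells stained with the dye CFSE (200000 per well) met FVB/N stimulator cells irradiated with 30 Gy (800000 per well) for 5 days. The 4 groups of 2 Affymetrix Mouse430_2 arrays each were CD4 cells and CD8 cells from cultures given 50 µg each of anti-CD40L, anti-LFA-1 and CTLA4-Ig, and CD4 cells and CD8 cells from cultures without antibody. Responder T cells were sorted as CFSE-positive cells bearing CD4 or CD8, and RNA was taken from 300000 of them. All 4 groups had met alloantigen, and no unstimulated or resting T cells were part of the comparison. The labels give 4 mice per group without saying whether the 2 arrays of a group were separate cultures, so p-values reflect no more than array-to-array spread, possibly technical.

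Cells enter S phase when cyclin-dependent kinases release E2F transcription factors from the retinoblastoma protein, and E2F factors then switch on genes for nucleotide supply and for the replication machinery. Rrm2 encodes the small subunit of ribonucleotide reductase, which makes deoxyribonucleotides from ribonucleotides, and Tk1 encodes the cytosolic thymidine kinase of the salvage pathway. Cdc6 loads the MCM helicase onto replication origins. Uhrf1 binds hemimethylated DNA behind the fork and recruits the methyltransferase DNMT1. T cells that receive antigen without costimulation divide poorly.

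Each deposited value is a log2 difference from the same probe set's median over the 8 arrays, with the log base taken as 2 (processing section), so that 1 log2 unit is a 2-fold difference. Levels can be compared between arrays for 1 gene, but not between genes. In the added control RNAs CD8 blockade replicate 1 stood well above the other arrays, and CD4 untreated replicate 2 was the lowest by a smaller margin. Hybridization controls (18 probe sets) reached a median of 0.92 on CD8 blockade replicate 1 but -0.23 on CD4 untreated replicate 2, and poly-A controls (27 probe sets) 0.79 and -0.44. On the other 6 arrays the hybridization controls lay between -0.078 and 0.13 and the poly-A controls between -0.34 and 0.23. The lowest of these, -0.34 on CD8 blockade replicate 2, was near that of CD4 untreated replicate 2. The arrays with the highest and the lowest controls are called those with unusual spike-ins below. Gapdh probes at the 5′ end minus those at the 3′ end, which track RNA integrity, lay between -0.11 and 0.0067 on the blockade arrays and between 0.014 and 0.099 on the untreated arrays. The same measure for beta-actin overlapped, at -0.040 to 0.051 on the blockade arrays and -0.033 to 0.023 on the untreated arrays. None of the listed T cell, CD4 or CD8 marker genes (0 of 11, 0 of 4 and 0 of 4) had a named probe set, so the sorted subsets could not be checked by their own markers.

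Because the 4 genes were listed for a shift in the same direction, their promoters are shown with the letters of 3 cell cycle motifs. RefSeq windows of GRCm38.p6, running from 250 bases before a transcript start to 50 after it, were found for all 4 genes, with 1 window each for Rrm2, Tk1 and Cdc6 and 2 for Uhrf1. Both strands were searched for 4 E2F spellings (TTTCCCGC, TTTCGCGC, TTTGCCGC and TTTGGCGC), for CCAAT, the core bound by NF-Y, and for TTTGAA, a form of the cell cycle homology region. Among all 32851 RefSeq mouse windows, 2.26% held an E2F spelling, 37.4% CCAAT and 17.9% TTTGAA. An E2F spelling was present in Cdc6 (on the opposite strand, from position -138) and in the second window of Uhrf1 (from -185), where position 1 is the transcript start. CCAAT was present in Rrm2 (from -50), in the second Uhrf1 window (from -150 and -107) and in the first (from -30 and -2, the last overlapping an opposite-strand match from 2). None of these letters were found in the window of Tk1, and TTTGAA was in none of the 5 windows. Of the 4 windows with a match, the windows of Rrm2 and Cdc6 and the second of Uhrf1 are given 5′ to 3′ on the gene's strand, with the matched letters in capitals.
Rrm2 (chr12:24708004-24708303, plus strand): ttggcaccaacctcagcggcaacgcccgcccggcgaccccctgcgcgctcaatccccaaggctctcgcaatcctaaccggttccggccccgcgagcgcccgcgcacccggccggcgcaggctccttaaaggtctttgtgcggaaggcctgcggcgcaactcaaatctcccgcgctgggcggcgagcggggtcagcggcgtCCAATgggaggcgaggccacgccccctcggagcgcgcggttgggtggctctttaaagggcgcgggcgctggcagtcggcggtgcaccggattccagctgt
Cdc6 (chr11:98907901-98908200, plus strand): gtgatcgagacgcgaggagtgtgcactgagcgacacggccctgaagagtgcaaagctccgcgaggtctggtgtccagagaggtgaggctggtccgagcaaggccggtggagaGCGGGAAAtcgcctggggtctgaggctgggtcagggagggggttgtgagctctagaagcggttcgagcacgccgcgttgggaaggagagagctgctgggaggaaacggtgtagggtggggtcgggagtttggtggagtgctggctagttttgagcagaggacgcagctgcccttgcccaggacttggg
Uhrf1 (chr17:56304063-56304362, plus strand): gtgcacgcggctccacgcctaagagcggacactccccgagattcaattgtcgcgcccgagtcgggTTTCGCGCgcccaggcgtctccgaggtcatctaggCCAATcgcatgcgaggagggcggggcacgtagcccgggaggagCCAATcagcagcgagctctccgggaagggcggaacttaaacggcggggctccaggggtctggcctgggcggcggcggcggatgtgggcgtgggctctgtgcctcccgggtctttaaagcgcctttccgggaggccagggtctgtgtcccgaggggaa

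Under blockade the transcripts of both nucleotide supply genes were lower in both subsets. For Rrm2, the mean of its 3 probe sets was -0.79 and -0.92 on the CD4 blockade arrays, against 0.87 and 1.71 on the CD4 untreated arrays. In CD8 cells it was -1.57 and -1.38 on the blockade arrays, against 0.81 and 1.02 on the untreated arrays. The blockade arrays of Rrm2 thus lay well below the untreated arrays in each subset, with 1.60 log2 units between the highest of the 4 blockade values and the lowest of the 4 untreated values. The change, blockade minus untreated, was -2.15 ± 0.24 in CD4 cells and -2.39 ± 0.24 in CD8 cells (SE of the fit, n = 2 and 2 arrays).

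Tk1 had -0.87 and -0.73 on the CD4 blockade arrays, against 0.21 and 1.24 on the CD4 untreated arrays. In CD8 cells its values were -0.99 and -0.21 under blockade, against 0.53 and 0.66 without treatment. Its groups did not overlap either, but the gap between blockade and untreated arrays was the narrowest of the 4 genes, at 0.41 log2 units. The change was -1.52 ± 0.33 in CD4 cells and -1.20 ± 0.33 in CD8 cells. Without CD4 untreated replicate 2 the CD4 change was -1.01.

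Cdc6, the origin licensing factor, had -0.62 and -0.65 on the CD4 blockade arrays, against 1.04 and 1.94 on the CD4 untreated arrays. In CD8 cells it had -0.78 and -0.61 under blockade, against 0.61 and 1.62 without treatment. The 4 blockade values lay within a narrow band and the 4 untreated values were spread widely above it. The change was -2.12 ± 0.34 in CD4 cells and -1.81 ± 0.34 in CD8 cells.

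Uhrf1, the maintenance methylation factor, had -0.75 and -0.96 on the CD4 blockade arrays, against 0.88 and 1.83 on the CD4 untreated arrays. Its CD8 values were -0.90 and -0.98 under blockade, against 0.75 and 1.27 without treatment. The blockade arrays of the subsets interleaved, and all lay below every untreated array. The change was -2.21 ± 0.28 in CD4 cells and -1.95 ± 0.28 in CD8 cells.

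In both subsets, then, all 4 genes had both blockade arrays below both untreated arrays. The same held for 20.8% of all 44951 features in CD4 cells and for 19.8% in CD8 cells, a share from which nothing is read here because the list was chosen on this contrast. The median change over the 4 genes was -2.14 in CD4 cells and -1.88 in CD8 cells. The median over all features was 0.010 and 0.018, and nothing is read from this distance either, for the same reason. Averaged over both subsets, the changes of the probe sets of the 4 genes ran from -1.36 for Tk1 to -2.62 for Rrm2 probe set 1448226_at. The smallest listed difference of any probe set was 1.00 in size. As 159 unlisted probe sets also differed by at least 1 log2 unit, size alone did not put a probe set on the list. Equal distances from 0, such as -0.61 and 0.61 for Cdc6 in CD8 cells, follow from centring on the median and are no finding. In bulk RNA, fewer cells in S phase and less of these transcripts per cell cannot be told apart.

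**Figure D1:**
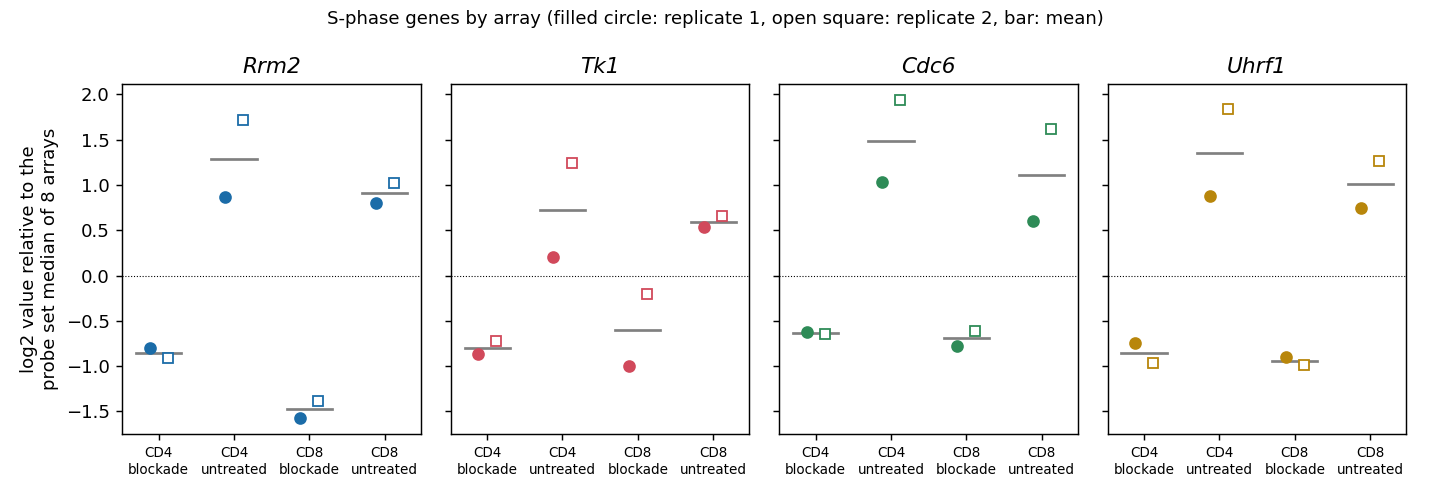
Values of Rrm2 (mean of 3 probe sets), Tk1, Cdc6 and Uhrf1 on each of the 8 arrays, as log2 relative to the median of 8 arrays. Filled circles are replicate 1, open squares replicate 2 and bars group means. The blockade arrays lie below 0 and the untreated arrays above 0 for each gene, and on the CD4 untreated arrays replicate 2 is the higher for each gene.

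The 3 Rrm2 probe sets had the same direction but not the same size. Probe set 1416120_at differed by -1.72 ± 0.26 in CD4 cells and -1.57 ± 0.26 in CD8 cells. The corresponding changes were -2.37 ± 0.26 and -2.69 ± 0.26 for 1434437_x_at, a design that can also bind related transcripts, and -2.34 ± 0.33 and -2.91 ± 0.33 for 1448226_at. On single arrays the 3 probe sets lay within 0.20 to 0.82 log2 units of each other, except on CD8 blockade replicate 1, where they spanned 1.53. On that array, the one with high spike-ins, 1416120_at stood at -0.74, 1434437_x_at at -1.71 and 1448226_at at -2.27. With 1416120_at alone, the CD8 change of Rrm2 was -1.57 in place of -2.39.

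**Figure D2:**
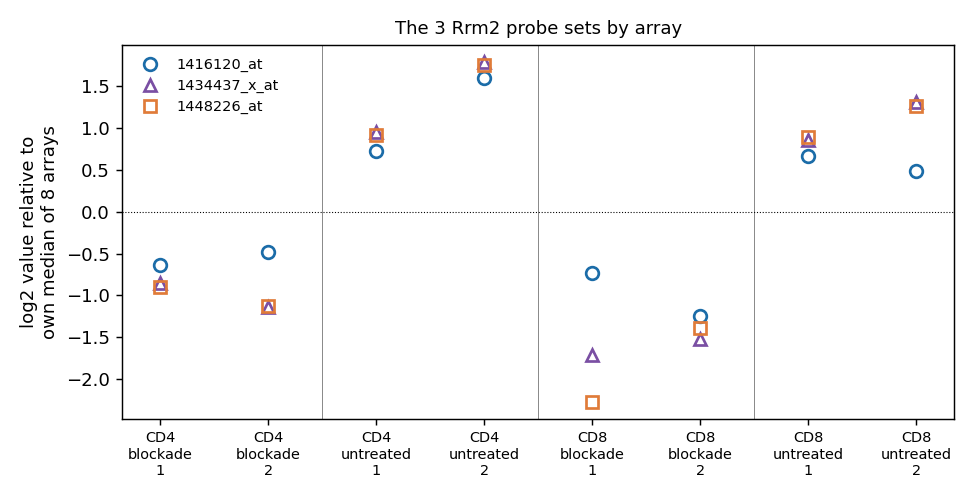
The 3 Rrm2 probe sets on each of the 8 arrays, each as log2 relative to its own median. They lie within 0.82 log2 units of each other on 7 arrays and span 1.53 log2 units on CD8 blockade replicate 1, where 1416120_at is the highest at -0.74.

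CD8 and CD4 cells were then compared at each treatment, over the fit of all 8 arrays. Without treatment the 4 genes were slightly lower on average in CD8 than in CD4 cells, by amounts within the spread of the arrays. The difference, CD8 minus CD4, was -0.38 ± 0.24 for Rrm2 (95% interval -0.92 to 0.16), -0.13 ± 0.33 for Tk1 (-0.89 to 0.62), -0.38 ± 0.34 for Cdc6 (-1.16 to 0.41) and -0.35 ± 0.28 for Uhrf1 (-0.99 to 0.30). Of the 4 genes, 0 passed a limma adjusted p of 0.05 (0 also at an unadjusted p of 0.05; adjusted p between 0.65 and 0.95), where 2.5% of all features did (11.3% unadjusted). Without CD4 untreated replicate 2 the differences turned to 0.044 for Rrm2, 0.39 for Tk1, 0.077 for Cdc6 and 0.13 for Uhrf1. The intervals do not exclude a subset difference of 1 log2 unit for Cdc6.

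Under blockade, Rrm2 was the one gene with both CD8 arrays below both CD4 arrays, and the subsets of the others overlapped. Its values of -1.57 and -1.38 on the CD8 blockade arrays lay below those of -0.79 and -0.92 on the CD4 blockade arrays, a difference of -0.62 ± 0.24 (95% interval -1.16 to -0.083; limma unadjusted p = 0.028, adjusted p = 0.33). Both CD8 arrays were below both CD4 arrays in 19.9% of all features. That share counts this direction only, so 1 such gene of 4 is not read as a result. The 3 probe sets shared the sign, at -0.43, -0.61 and -0.82. For Tk1 the difference was 0.20 ± 0.33 (-0.56 to 0.95), for Cdc6 -0.059 ± 0.34 (-0.85 to 0.73) and for Uhrf1 -0.087 ± 0.28 (-0.73 to 0.56). Here too 0 of 4 genes passed the adjusted threshold in limma (1 at an unadjusted p of 0.05), against 2.2% of all features (11.9% unadjusted).

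The change under blockade was not shown to differ between subsets for any of the 4 genes. The CD8 change minus the CD4 change was -0.24 ± 0.33 for Rrm2 (-1.0 to 0.52), 0.33 ± 0.47 for Tk1 (-0.74 to 1.40), 0.32 ± 0.49 for Cdc6 (-0.80 to 1.43) and 0.26 ± 0.40 for Uhrf1 (-0.65 to 1.18). In limma 0 of 4 passed (0 also at an unadjusted p of 0.05; adjusted p of 0.99 for each), against 0.0578% of all features (4.99% unadjusted). The order of group means was untreated CD4, untreated CD8, blockade CD4 and blockade CD8 from high to low for Rrm2, Cdc6 and Uhrf1, and for Tk1 the blockade groups stood the other way round. In each order the neighbours of the same treatment did not differ at the adjusted threshold.

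**Figure D3:**
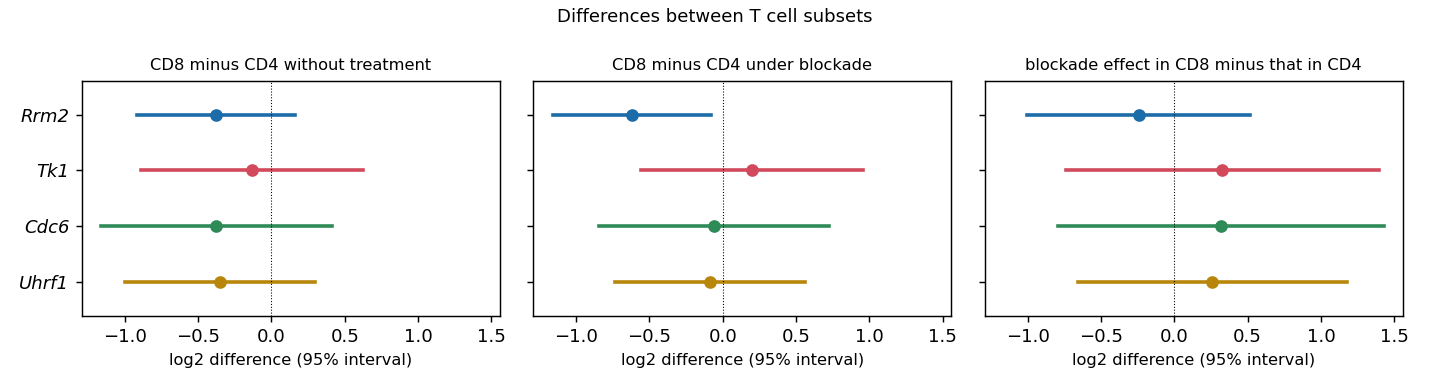
Differences between CD8 and CD4 cells for the 4 genes, in log2 units: points are the fitted differences and lines their 95% intervals. Left, CD8 minus CD4 without treatment; middle, the same under blockade; right, the blockade change in CD8 cells minus that in CD4 cells. Each interval spans 0 except that of Rrm2 under blockade, which runs from -1.16 to -0.083.

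The spread between replicates, which the authors' test also took into account, was wide for the 4 genes in untreated CD4 cells. There they stood higher on replicate 2 than on replicate 1, by 0.85 for Rrm2, 1.04 for Tk1, 0.90 for Cdc6 and 0.95 for Uhrf1. A difference at least as large as the smallest of these was found in 89 of 44951 features, or 0.198%. All 28 named genes of the mitosis list were also higher on replicate 2 there, by 0.086 to 1.23 with a median of 0.59, while 188 of all 289 named genes were higher, with a median of 0.17. On the same arrays the 8 named neutrophil markers averaged 1.75 on replicate 2 and 1.24 on replicate 1, the 5 mast cell and basophil markers 1.57 and 1.35, and the 12 B cell markers -0.75 and -0.87. The spike-ins of replicate 2 were low, as given above, and the part of these in the difference was not tested. After quantile normalization the 4 differences lay between 0.45 and 0.62, and 725 features, or 1.61%, reached the smallest of them.

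In untreated CD8 cells all 4 genes were also higher on replicate 2, by 1.02 for Cdc6, 0.52 for Uhrf1, 0.21 for Rrm2 and 0.12 for Tk1. A difference at least as large as the smallest of these was found in 25.1% of all features. Of the 28 mitosis genes 22 were higher there, with a median of 0.25, against 129 of all 289 named genes. Under blockade the signs were mixed, and 16 of the 28 mitosis genes in CD8 cells and 9 in CD4 cells were higher on replicate 2. Among all 289 named genes these counts were 173 and 105. In CD8 cells under blockade only Tk1 differed by over 0.2, at 0.79. In CD4 cells under blockade the differences lay between -0.22 and 0.15. Over all features the standard deviation of this difference was 0.20 to 0.24 in the 4 groups.

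**Figure D4:**
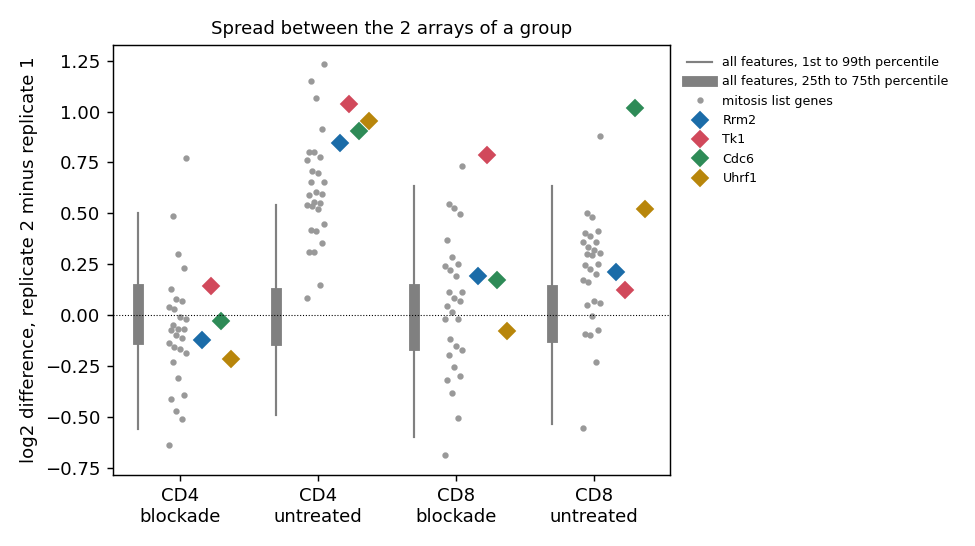
Replicate 2 minus replicate 1 in each group, in log2 units, for the 4 genes (diamonds), the 28 named mitosis genes (grey dots) and all 44951 features (thick bar, interquartile range; thin line, 1st to 99th percentile). In untreated CD4 cells the diamonds lie between 0.85 and 1.04, above the 99th percentile of all features, and every mitosis gene is above 0.

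The other genes of G1/S control, nucleotide supply and replication were taken from 5 lists with 110 genes, of which 14 had a name in the authors' list and 10 of these were not among the 4. All 10 had both blockade arrays below both untreated arrays in each subset, with a median change of -1.71 in CD4 cells and -1.46 in CD8 cells. These genes come from the same list and so share its choice. Chek1, a replication checkpoint kinase, had a difference of -1.41 ± 0.35 in CD4 and -1.50 ± 0.35 in CD8 cells. Ccne2, a cyclin of S-phase entry, differed by -1.19 ± 0.31 and -1.08 ± 0.31, Ccna2, the S-phase cyclin, by -2.32 ± 0.25 and -2.27 ± 0.25, and E2f8, a repressor in the E2F family, by -1.68 ± 0.27 and -1.35 ± 0.27. Cdkn1a, the inhibitor p21, which restrains the cycle, differed by -2.30 ± 0.19 and -1.73 ± 0.19. The 28 named mitosis genes of 57 listed had median changes of -1.65 in CD4 and -1.43 in CD8 cells.

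Samhd1, which breaks down deoxynucleoside triphosphates and so acts against the supply that Rrm2 feeds, was the single gene of the 14 to pass in a comparison of subsets. In that comparison, CD8 minus CD4 without treatment, 2.5% of all features passed. A single pass among these 14 and the 28 mitosis genes is therefore not read as a result about the lists. As the mean of its 4 listed probe sets, which are not shown singly, Samhd1 stood at 0.39 and 0.38 on the CD8 untreated arrays. On the CD4 untreated arrays it stood at 1.31 and 1.28. The CD8 arrays were lower by a wide margin and the replicates of each group nearly coincided. Samhd1 was lower in CD8 cells, at -0.91 ± 0.092 (limma adjusted p = 0.0011; between 7.3e-04 and 0.041 over the alternatives, with -0.57 after quantile normalization). Under blockade its values were -0.51 and -0.47 in CD8 cells, against -0.50 and -0.38 in CD4 cells, and they overlapped. Its blockade change was -0.87 ± 0.092 in CD8 cells and -1.73 ± 0.092 in CD4 cells, and the difference between these, 0.86 ± 0.13, had a limma adjusted p of 0.11 (0.11 to 0.96 over the alternatives). Of the other 9 genes and of the 28 mitosis genes, 0 passed in any of the 3 comparisons. At an unadjusted p of 0.05 at most 3 of the mitosis genes passed, without treatment, where 11.3% of all features did. Of the 9 genes, 1 did so under blockade (Ccnd2, limma unadjusted p = 0.045), where 11.9% of all features did.

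**Figure D5:**
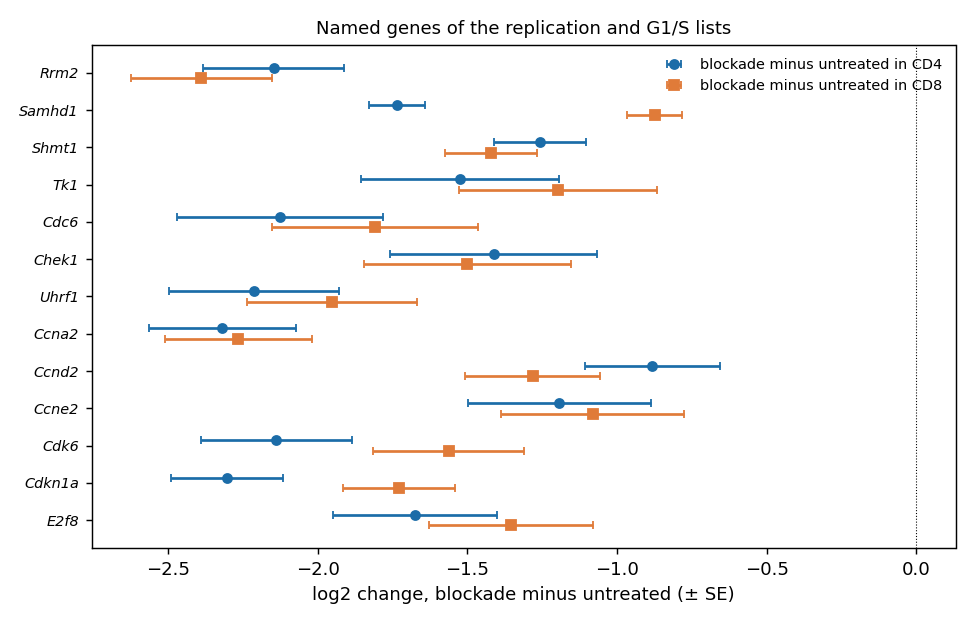
Change under blockade, as log2 blockade minus untreated with its SE (n = 2 and 2 arrays), in CD4 cells (circles) and CD8 cells (squares) for 13 of the 14 named genes of the 5 lists, ordered by list. All 26 changes lie below 0, and the subsets stand farthest apart for Samhd1, at -0.87 in CD8 cells and -1.73 in CD4 cells.

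Genes with the most similar course over the 8 arrays were sought among the other 288 named genes by the root mean square difference of values centred on their mean. Rrm2 ran closest to Top2a, the topoisomerase that untangles replicated DNA (0.11), Mki67, a marker of cycling cells (0.16), and Cdk1, the mitotic kinase (0.21), where the median over all named genes was 0.66. Uhrf1 ran closest to Ncapg2, a condensin subunit (0.11), Cdc6 (0.16) and Pclaf, a partner of the sliding clamp PCNA (0.16; median 0.58). Cdc6 ran closest to Uhrf1 (0.16), Lgals1, which encodes galectin-1 (0.18), and Ncapg2 (0.19; median 0.59). Tk1 ran closest to Spc24, a kinetochore protein (0.16), Ckap2, which binds spindle microtubules (0.20), and Dscc1, which helps load the clamp at forks (0.23; median 0.55). Uhrf1 was thus the nearest of all 288 genes to Cdc6, whereas Tk1 ranked 99th for Rrm2. The values were centred but not scaled, so a smaller change, as that of Tk1, also counts as distance. A rank therefore does not separate the size of a change from its course. As all these genes were listed for their blockade change, likeness is measured among genes that already share that step.

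Beside the 4 genes, several lists of non-T cell markers differed between treated and untreated arrays. The 12 named B cell markers of 17 averaged 0.72 to 0.87 on the blockade arrays and -0.89 to -0.73 on the untreated arrays. The 3 named macrophage and dendritic cell markers of 16 averaged 0.65 to 1.24 on the blockade arrays and -1.17 to -0.77 on the untreated arrays. The 8 named neutrophil markers of 16 averaged -1.61 to -1.05 under blockade and 1.09 to 1.75 without treatment, and the 5 mast cell and basophil markers of 10 averaged -1.62 to -1.36 under blockade and 1.35 to 2.07 without treatment. Of the erythroid and natural killer cell markers, 0 of 10 and 0 of 7 had a name. These lists too could be named only through the authors' list, and centred values do not tell whether a marker is near 0. Their part in the changes of the 4 genes was not tested.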

How the data were processed

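Total RNA of sorted T cells was hybridized to 8 Affymetrix Mouse430_2 arrays, 2 in each of 4 groups taken from the sample titles. The authors deposited log2 values normalized between arrays, each relative to its probe set's median over the 8 arrays. The base of the logarithm, the probe summary and the normalization method were not given in the sources used here. Base 2 was inferred from how the list is laid out. Per the file headers, the list of 409 probe sets was drawn up by unpaired testing, keeping corrected p-values up to 0.05. Its values equalled those of the full table. The signal level and any detection call are lost through the centring, so no dim probe sets were filtered.

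Listed probe sets with 1 gene were averaged per gene, with symbols updated through RefSeq, which left 44951 features. limma 3.58.1 in R 4.3.3 fitted a mean per group over all 8 arrays with eBayes (4 residual and 4.48 prior degrees of freedom), for 3 two-sided comparisons between subsets, and p-values were adjusted by Benjamini-Hochberg across every feature (threshold 0.05). On simulated data of 44951 features with the fit's own spread, 100 features were changed by 1 log2 unit. The fit recovered 78% of them for CD8 minus CD4 without treatment, 80% under blockade and 44% for the difference of blockade changes. These shares do not give the recovery for the 4 genes, which was not simulated. Their SEs for CD8 minus CD4 were 0.24 to 0.34, above the fit's prior standard deviation of 0.12. Members and gene lists were chosen with earlier results of these data known. The genes named are the 4 members, members of the lists, and the 3 genes nearest to each member. The values of 1 gene of the lists are not reported here. Motifs were searched with Python 3.11.15. The number of arrays limits the precision.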

Additional observations from a re-analysis of the deposited data

How the results depend on the processing

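The 3 comparisons between subsets called 0 of the 4 genes under every alternative run: leaving out each array, leaving out both arrays with unusual spike-ins, quantile normalization, centring each array on its median, array quality weights, the median over probe sets, single Rrm2 probe sets and, except for the difference of blockade changes, only the arrays compared. Array quality weights came out equal for the arrays of a group. That setting thus left the differences unchanged and could not discount a single array. With the replicate number as a block the count was also 0, and Rrm2 under blockade had a limma adjusted p of 0.27. Over all probe sets, the deviations of replicates that share a number were hardly correlated (between -0.030 and 0.078), and the main comparisons used no pairing. Such a correlation does not tell whether the cell cycle genes deviated together. All 4 genes were higher on replicate 2 in both untreated groups. So were 28 of 28 mitosis genes in untreated CD4 cells and 22 of 28 in untreated CD8 cells. The labels do not say whether samples of 1 number share a culture. No filter on low signal could be run on centred values.

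The median blockade change of the 4 genes kept its sign throughout, from which nothing is read because the list was chosen on this contrast. Leaving out arrays could not turn the sign, since for each gene every blockade value lay below every untreated value. In CD4 cells the median change was -1.70 without both arrays with unusual spike-ins and -1.77 after quantile normalization. It was -2.57 to -1.70 there when 1 array was left out. In CD8 cells it was -2.26 to -1.50 when 1 array was left out.

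Except for Rrm2 under blockade, each difference between subsets of the 4 genes changed sign under some settings, and the cause was not tested. None of these differences passed. When 1 array was left out, CD8 minus CD4 without treatment ran from -0.80 to 0.044 for Rrm2, -0.65 to 0.39 for Tk1, -0.88 to 0.13 for Cdc6 and -0.82 to 0.13 for Uhrf1. Under blockade it ran from -0.20 to 0.59 for Tk1, -0.15 to 0.027 for Cdc6 and -0.19 to 0.021 for Uhrf1. For Rrm2 under blockade it ran from -0.72 to -0.53, and from -0.82 to -0.43 over all settings. The CD8 minus the CD4 change ran from -0.67 to 0.18 for Rrm2, -0.19 to 0.85 for Tk1, -0.19 to 0.82 for Cdc6 and -0.22 to 0.74 for Uhrf1. Without both arrays with unusual spike-ins, CD8 minus CD4 without treatment was 0.044 for Rrm2, 0.39 for Tk1, 0.077 for Cdc6 and 0.13 for Uhrf1, that under blockade 0.027 for Cdc6, and the difference of changes -0.050 for Cdc6 and -0.26 for Uhrf1. After quantile normalization Tk1 without treatment was 0.096 and the difference of changes for Uhrf1 -0.035. With probe set 1416120_at alone the difference of changes for Rrm2 was 0.15. Without CD4 untreated replicate 1, 3 mitosis genes passed in CD8 minus CD4 without treatment. In 11 alternatives chosen after seeing the data, Rrm2, Cdc6 and Uhrf1 kept at least 1 of their 3 nearest genes and Tk1 at least 2.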
